A study of Mus musculus with 4 samples.

Results

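The circadian clock genes measured here were Per1, Per2, Per3, Cry1, Cry2, Arntl, Clock, Nr1d1, Nr1d2 and Dbp. They were taken as all array probes whose annotated symbol matched 1 of these 10 names, which gave 11 probes, 2 of them for Per3, out of 26423 probes in all. The cells were MA-10, a clonal mouse Leydig tumor line, in which a single cell type is cultured without the rest of the testis. The treated group received 100 μM cordycepin (3′-deoxyadenosine) for 3 hours, and the control group received vehicle for the same time, named PBS in the sample labels and DMSO in the methods of the study. The dose is that of the sample titles, and the RNA protocol of the labels gives 20 mg/mL instead. Each group was measured on 2 one-colour Mouse OneArray arrays, and nothing in the sources says that the duplicates were separate cultures, so the p-values rest on array-to-array spread alone, and that spread may be purely technical.

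The mammalian clock is a transcription loop. CLOCK and BMAL1, the product of Arntl, bind E-box elements and switch on the Per and Cry genes, whose proteins return to the nucleus and repress their own activators. A coupled loop runs through the REV-ERB receptors (Nr1d1 and Nr1d2), which repress Arntl, and the ROR receptors, which activate it, and DBP is a clock-controlled transcription factor that acts on D-box elements. In Leydig cells BMAL1 is known for its link to steroidogenic gene expression. The comparison asks how the RNA of this loop stood after 3 hours of cordycepin.

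Start-site sequences from RefSeq (build GRCm38.p6) are shown for the genes on which the results turn, from 250 bases before to 50 bases after an annotated start, 5′ to 3′ on the gene's strand. Capitals mark every match to the E-box CACGTG, the D-box TTATGTAA, the full cAMP response element TGACGTCA or the ROR and REV-ERB core AGGTCA, on either strand. Per1 (chr11:69098699-69098998, plus strand) held an E-box and a ROR and REV-ERB core, and Cry1 (chr10:85185005-85185304, minus strand) held an E-box. Another annotated Per1 window (chr11:69099902-69100201, plus strand), not printed here, held no match. Per3 (chr4:151044616-151044915, minus strand) held 2 D-boxes, and Cry2 (chr2:92434020-92434319, minus strand) held none of these letters.
Per1: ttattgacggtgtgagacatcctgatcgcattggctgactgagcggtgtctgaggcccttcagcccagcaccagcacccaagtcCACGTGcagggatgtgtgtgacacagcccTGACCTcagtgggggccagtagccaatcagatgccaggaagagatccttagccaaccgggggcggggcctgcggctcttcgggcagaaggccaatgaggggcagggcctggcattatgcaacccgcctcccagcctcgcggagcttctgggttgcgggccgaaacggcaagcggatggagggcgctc
Cry1: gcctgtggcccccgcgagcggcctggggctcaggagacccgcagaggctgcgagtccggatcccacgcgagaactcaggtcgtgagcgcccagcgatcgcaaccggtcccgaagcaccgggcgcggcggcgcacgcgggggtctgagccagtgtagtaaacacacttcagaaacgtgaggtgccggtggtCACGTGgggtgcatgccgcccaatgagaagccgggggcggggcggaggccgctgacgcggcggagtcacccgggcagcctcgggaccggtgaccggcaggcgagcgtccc
Per3: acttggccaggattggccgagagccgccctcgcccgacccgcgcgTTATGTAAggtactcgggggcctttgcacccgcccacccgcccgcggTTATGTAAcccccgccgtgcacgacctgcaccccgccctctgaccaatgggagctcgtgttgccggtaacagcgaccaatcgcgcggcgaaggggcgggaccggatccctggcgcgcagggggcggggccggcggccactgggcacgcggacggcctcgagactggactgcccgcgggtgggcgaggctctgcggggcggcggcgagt
Cry2: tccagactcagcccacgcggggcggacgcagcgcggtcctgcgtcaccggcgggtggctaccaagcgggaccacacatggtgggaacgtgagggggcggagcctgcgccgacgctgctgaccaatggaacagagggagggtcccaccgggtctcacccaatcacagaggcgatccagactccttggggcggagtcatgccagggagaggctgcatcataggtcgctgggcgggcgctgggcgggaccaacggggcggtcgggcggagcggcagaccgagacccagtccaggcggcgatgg

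In these windows the Per1 E-box began at base -166 and the Cry1 E-box at base -60 from the start site, and the Per3 D-boxes began at bases -205 and -158. The reference table held 13 start-site windows for 9 of the 10 genes, and Per2 had none. The E-box was present in 2 of the 13, against 7.15% of all 32851 windows in the table, the D-box in 1, against 0.938%, the ROR and REV-ERB core in 4, those of Per1, Arntl, Clock and Nr1d2, against 16.3%, and the full cAMP response element in 0, against 1.79%. No motif overlapped another in these windows. A match of letters is a description of the sequence and not a measured binding site.

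All 11 clock probes were detected on all 4 arrays, that is, with a deposited detection p under 0.05. Over the whole array, 12193 and 12784 probes were detected in cordycepin-treated cells and 13415 and 13130 in control cells. The intensities are those the authors normalized with 1 multiplying constant per array. In them control replicate 1 lay a median of 0.50 above control replicate 2 on the log2 scale, against 0.03 between the cordycepin arrays. This and the next medians are over the 24319 probes above 0 on all 4 arrays. The median raw intensity over these probes was 23 and 28 on the cordycepin arrays and 33 and 31 on the control arrays. After normalization it was 25.6 and 25.5 in cordycepin and 37.8 and 27.5 in control, so the constants set the control arrays further apart. All 11 clock probes shared the control gap, by 0.20 to 0.90 (median 0.50), while the cordycepin arrays differed by -0.19 to 0.34 (median 0.13). The number of arrays limits the precision, and an exact two-sided permutation test of 2 arrays against 2 cannot go below p = 0.333. The Leydig cell markers Star, Hsd3b1, Cyp17a1, Nr5a1 and Scarb1 were detected on all 4 arrays. Lhcgr was not detected on control replicate 1, Cyp11a1 stood at 0 on all 4 arrays, and Insl3 was not analysed here. Of 4 markers each of Sertoli cells, germ cells and macrophages, 2, 1 and 1 were detected on all 4 arrays. On both arrays of at least 1 group, 3, 1 and 3 were detected, with Csf1r and Ptprc among the macrophage markers. Amh, Dazl, Sycp3, Prm1 and Adgre1 were detected on no array.

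Of the 10 clock genes, 4 were lower after cordycepin and 0 were higher. The test was limma on log2 normalized intensity, with a threshold of 0.05 on the p adjusted over 24319 probes. Those lower were Cry2, Per2, Per1 and Arntl, which span the repressor and the activator arm. Over all 18478 genes, each taken by its brightest probe, 14.7% were lower and 0.942% were higher. Among the 11283 genes whose probe was detected on every array of a group, 22.1% were lower and 0.505% were higher. The median log2 ratio was -0.91 over the 10 clock genes, -0.13 over all genes and -0.31 over the detected genes. For 9 of the 10 genes each cordycepin array lay below both control arrays, which held for 35.5% of all genes, while the opposite order held for 8.64% of all genes and for 0 of the 10. These 2 shares include genes that were not detected, and the shares among detected genes alone were not computed. Every log2 ratio had a standard error of 0.41, because the fit pooled the variance over all probes. The very small adjusted p-values rest on that pooling and not on the 2 arrays per group alone. The median standard error was 0.12 with arrays centred on their median. The calls depended on the fit. With a pseudocount of 50, 0 of the 10 genes and 0 of all 26423 probes passed toward lower. Before adjustment (p under 0.05, limma) 5 genes and 4269 probes were lower. With the methods' t-test, 0 of the 10 genes and 0 of the 24319 probes passed. Before adjustment 4 genes and 2946 probes were lower by that test. Leaving out 1 array also moved the ratios, as given for single genes below. In a bulk culture, fewer cells that express a gene and less RNA per cell cannot be told apart.

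**Figure D1:**
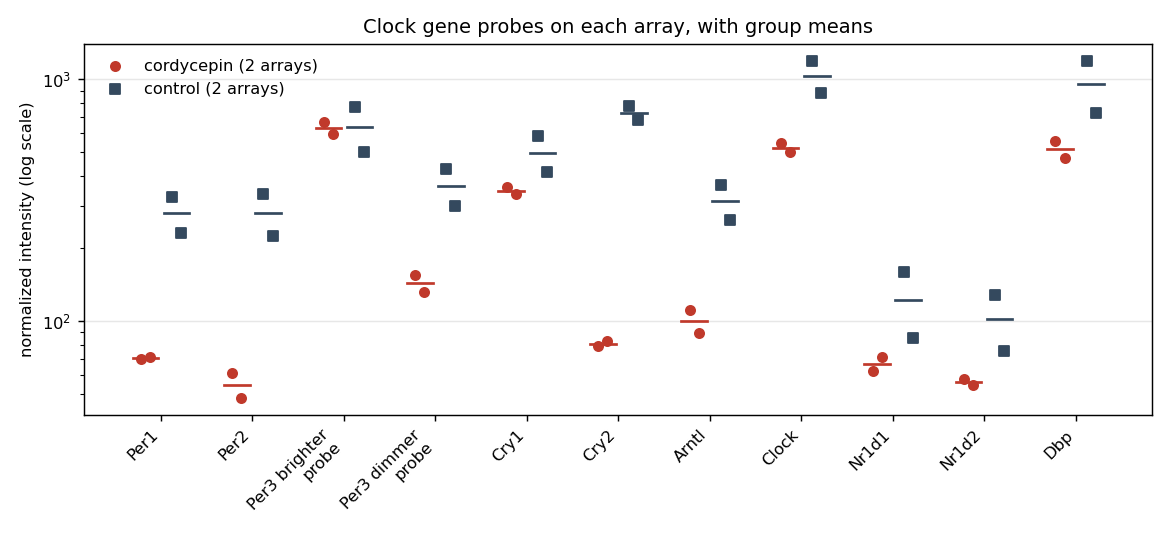
Normalized intensity (log scale) of the 11 clock probes on each array, with circles for the 2 cordycepin arrays, squares for the 2 control arrays and bars for group means. The groups lie apart for every probe except the brighter Per3 probe, and the widest gap is that of Cry2, at 78.9 and 82.7 in cordycepin and 776 and 676 in control.

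Among the repressors, Cry2, a cryptochrome that blocks CLOCK and BMAL1, showed the largest difference of the 10 genes. Its normalized intensity was 78.9 and 82.7 on the cordycepin arrays, against 776 and 676 on the control arrays. Every cordycepin value was thus far below every control value, and the gap within each group was small beside the gap between them. The means were 80.8 ± 2.71 in cordycepin and 726 ± 70.5 in control (SD, n = 2 arrays each), 8.97-fold lower in cordycepin, with a log2 ratio of -3.17 (95% interval -3.96 to -2.37, adjusted p = 5.8e-13 from limma). The adjusted p for Cry2 was larger under the other scalings, at 0.0014 with centred arrays, 0.0076 with quantile normalization and 0.011 with raw intensities (limma). It was 0.32 with the methods' t-test. Of all genes, 1.54% had a lower ratio.

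Cry1, the paralog of Cry2, did not pass the test. It was at 358 and 335 in cordycepin, against 582 and 414 in control, so that the groups did not overlap, but the control arrays lay further from each other than the lower control array lay from cordycepin. Its log2 ratio was -0.50 (interval -1.30 to 0.29, adjusted p = 0.60 from limma), and with quantile-normalized raw intensities it was 0.24, with an adjusted p of 0.042. The direction for Cry1 therefore depended on the scaling of the arrays. Of the start-site windows printed above, that of Cry1 held an E-box and that of Cry2 held none of the motifs. The printed window of Per1, which was lower, held an E-box as well. A link between these letters and the ratios was not tested.

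The Period genes encode the partners of the cryptochromes in the repressor complex. Per2 was at 61.1 and 48.2 in cordycepin, against 337 and 225 in control, 5.08-fold lower. Per1 was at 70.0 and 70.9 in cordycepin, against 326 and 233 in control, 3.91-fold lower. For both genes the groups were well apart, and the wider gap within a group was that between the control arrays. The log2 ratio was -2.34 for Per2 (interval -3.14 to -1.55, adjusted p = 2.3e-07 from limma) and -1.97 for Per1 (interval -2.77 to -1.17, adjusted p = 2.4e-05).

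The 2 probes of Per3, the remaining Period gene, disagreed. The brighter probe was at 664 and 595 in cordycepin, against 768 and 502 in control. The cordycepin values fell between the control values, with a log2 ratio of 0.02 (interval -0.78 to 0.82, adjusted p = 1.0 from limma). The dimmer probe was at 156 and 132 in cordycepin, against 426 and 301 in control. Here the groups were apart, and the log2 ratio was -1.32 (interval -2.12 to -0.52, adjusted p = 0.011). Leaving out cordycepin replicate 1 or 2 ended that call (adjusted p = 0.18 and 0.38). Both probes carry the same RefSeq transcript in the array annotation, so the difference cannot be assigned to a named transcript from these files.

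Of the activators, Arntl, which encodes BMAL1, was lower in cordycepin-treated cells. It was at 111 and 89.1 in cordycepin, against 366 and 261 in control, with no overlap between the groups. The log2 ratio was -1.64 (interval -2.43 to -0.84, adjusted p = 7.4e-04 from limma), 3.11-fold lower. The call was lost without cordycepin replicate 2 (log2 ratio -1.48, adjusted p = 0.16) and with no filter on low probes (adjusted p = 0.053).

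Clock, which encodes the partner of BMAL1, was at 544 and 499 in cordycepin, against 1194 and 879 in control. The groups did not overlap, but the log2 ratio of -0.97 (interval -1.77 to -0.18) did not pass over all probes (adjusted p = 0.097 from limma). It passed under each other scaling by limma, namely arrays centred on their median (-0.64, adjusted p = 0.016), quantile normalization (-0.40, adjusted p = 0.025) and raw intensities (-0.97, adjusted p = 0.023). It also passed with detected probes only (adjusted p = 0.016) or an intensity trend (adjusted p = 0.049). No call came with no filter on low probes (adjusted p = 0.12), a pseudocount of 50 (adjusted p = 0.15) or the methods' t-test (adjusted p = 0.37). Leaving out 1 array gave log2 ratios of -1.04 and -0.91 without cordycepin replicate 1 or 2, and -0.75 and -1.20 without control replicate 1 or 2.

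The REV-ERB genes, which encode heme-binding nuclear receptors that repress Arntl, gave nearly equal log2 ratios, both of -0.81, and neither passed the test. Nr1d1 was at 62.2 and 70.9 in cordycepin, against 159 and 85.2 in control (adjusted p = 0.23 from limma). Nr1d2 was at 57.8 and 54.5 in cordycepin, against 128 and 75.5 in control (adjusted p = 0.23). In both, control replicate 1 was high and control replicate 2 was closer to the cordycepin arrays. Without control replicate 2 the log2 ratio was -1.26 for Nr1d1 and -1.19 for Nr1d2. Without control replicate 1 it was -0.36 and -0.43 in the same order. Quantile normalization gave -0.08 for Nr1d1 (adjusted p = 0.79 from limma) and -0.14 for Nr1d2 (adjusted p = 0.38). The size of both ratios therefore depended on the scaling and on the control array used.

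Dbp, the output factor that binds D-boxes, stood at 557 and 475 in cordycepin, against 1188 and 724 in control. The groups did not overlap, and the log2 ratio of -0.85 (interval -1.65 to -0.05) did not pass (adjusted p = 0.19 from limma). It passed with detected probes only (adjusted p = 0.042 from limma) and did not pass with quantile normalization (-0.26, adjusted p = 0.18). Leaving out 1 array gave log2 ratios of -0.96 and -0.74 without cordycepin replicate 1 or 2, and -0.49 and -1.21 without control replicate 1 or 2.

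**Figure D2:**
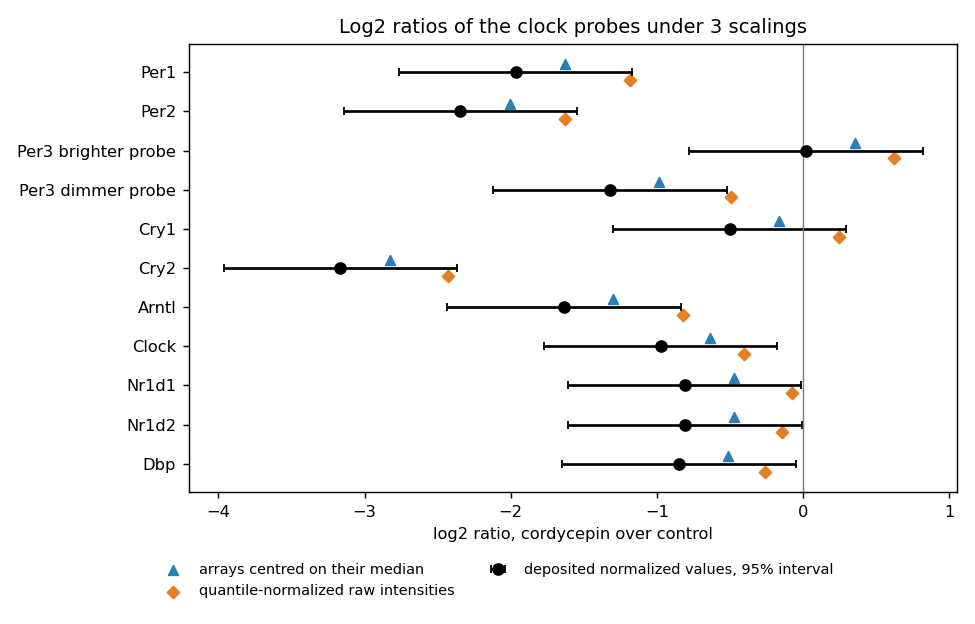
Log2 ratio of cordycepin over control for the 11 clock probes (horizontal axis), with circles and 95% intervals for the deposited normalized values, triangles for arrays centred on their median and diamonds for quantile-normalized raw intensities. Cry2, Per2, Per1 and Arntl stay left of 0 under all 3 scalings, while the brighter Per3 probe lies at 0.02, 0.36 and 0.62 and Cry1 at -0.50, -0.17 and 0.24.

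The ratios moved with the scaling. The median log2 ratio over all genes was -0.13 with the deposited normalized values and with raw intensities, 0.21 after centring each array on its median and 0.12 after quantile normalization of the raw intensities. Over the 10 clock genes the median was -0.91, -0.91, -0.57 and -0.33 in the same order. Cry2, Per2, Per1 and Arntl passed toward lower under all 4 scalings. With quantile normalization Per3 by its brighter probe (log2 ratio 0.62, adjusted p = 0.014) and Cry1 were higher, under a scaling in which 22.2% of all genes were higher and 17.2% were lower. With centred arrays 19.8% were lower and 19.9% higher, and with raw intensities 17.9% and 1.04%.

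Related clock probes were also set against each other on the same array, where no scaling constant enters, for 5 pairs chosen after the values had been seen. Only the change of such a difference between groups can be read, since the levels of separate probes do not compare. The Cry2 minus Cry1 difference was -2.18 and -2.02 on the cordycepin arrays, against 0.42 and 0.71 on the control arrays, a shift of -2.66 on the log2 scale. The dimmer minus the brighter Per3 probe was -2.09 and -2.18 in cordycepin, against -0.85 and -0.74 in control, a shift of -1.34. The Arntl minus Clock difference was -2.29 and -2.49 in cordycepin, against -1.70 and -1.75 in control, a shift of -0.66. In these 3 pairs the shift exceeded the gap between the arrays of either group, so the members of each pair did not change alike on these arrays. The exact permutation p was 0.333 for each, the smallest this design allows.

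Per2 minus Per1 was -0.20 and -0.56 in cordycepin, against 0.04 and -0.04 in control. The groups did not overlap (exact permutation p = 0.333), and the shift of -0.38 was barely larger than the gap of 0.36 between the cordycepin arrays. Nr1d1 minus Nr1d2 was 0.11 and 0.38 in cordycepin, against 0.31 and 0.18 in control, so the groups overlapped (exact permutation p = 1.0).

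**Figure D3:**
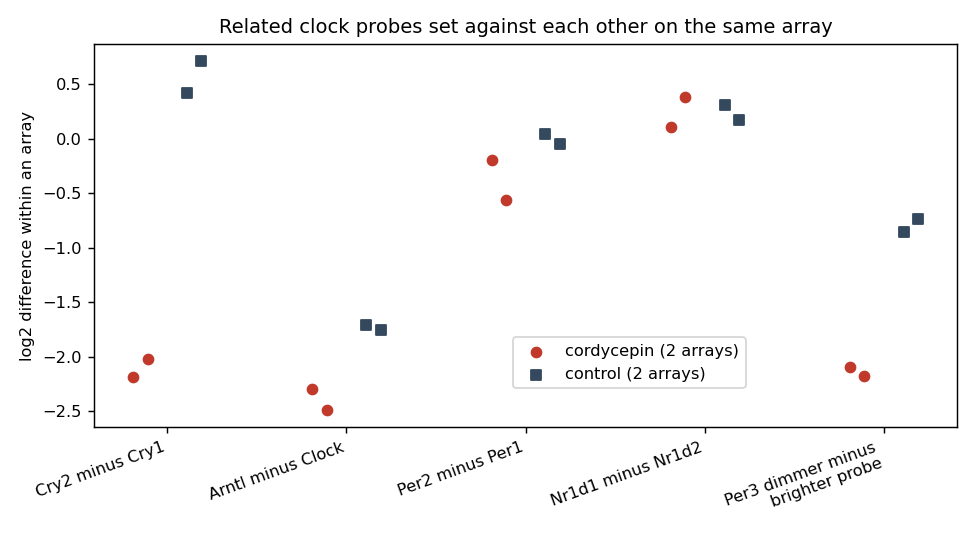
Log2 difference between related clock probes on the same array (vertical axis), with circles for the 2 cordycepin arrays and squares for the 2 control arrays. Cordycepin and control arrays lie 2.66 apart on average for Cry2 minus Cry1 and 1.34 apart for the Per3 probes, and they overlap for Nr1d1 minus Nr1d2.

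A further 25 genes of the clock stood beside these 10. By the same limma test 10 of them were lower and none of the other 15 passed in either direction, with a median log2 ratio of -0.47 over the 25, against -0.13 over all genes, of which 14.7% were lower. With a pseudocount of 50, 0 of the 25 genes and 0 of all probes were lower. Before adjustment (p under 0.05, limma) 10 genes and 4269 probes were lower in that fit. By the test of the methods 0 of the 25 and 0 of all probes were lower, against 9 and 2946 before adjustment. Leaving out 1 array changed the number of lower calls both among the 25 and over all probes. A probe was detected on every array of a group for 17 of the 25, of which 9 were lower and 8 did not pass, against 22.1% lower among all genes so detected, and 8 genes were detected on no array. The tenth lower gene, Ciart, a repressor named Gm129 on the array, was among those 8, so no fold is given for it, and it did not pass under any other scaling.

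Among the genes detected in both groups the largest falls were in repressors outside the Per and Cry families. Nfil3, which competes with DBP at D-boxes, was at 56.7 and 58.2 in cordycepin, against 734 and 528 in control, with a log2 ratio of -3.44 (adjusted p = 3.5e-15 from limma). Bhlhe40, or DEC1, which competes for E-boxes, was at 239 and 262 in cordycepin, against 2784 and 2153 in control, with a log2 ratio of -3.29 (adjusted p = 5.8e-14). Both genes were lower than every control value by a wide margin on each cordycepin array. Bhlhe41, the related DEC2 gene, was not detected.

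Of the kinases, Csnk1d and Csnk1e encode casein kinase 1 delta and epsilon, which phosphorylate the PER proteins. Csnk1d was at 463 and 465 in cordycepin, against 2118 and 1440 in control (log2 ratio -1.91, adjusted p = 4.5e-05 from limma). Csnk1e was at 164 and 155 in cordycepin, against 470 and 327 in control (log2 ratio -1.29, adjusted p = 0.013), which did not pass without cordycepin replicate 1 or 2 (adjusted p = 0.25 and 0.33). Both genes stood apart from control on each array. Csnk2a1, a catalytic subunit of casein kinase 2, had a log2 ratio of -0.42 (adjusted p = 0.74), and Gsk3b was not detected.

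Among the factors closest to the members in sequence or target, Tef, a PAR bZIP relative of Dbp, had a log2 ratio of -1.26 (adjusted p = 0.016 from limma), and Rora, the ROR receptor that opposes the REV-ERBs, had one of -1.10 (adjusted p = 0.049). The Rora ratio lay at the edge of the test, which passed no ratio smaller than 1.10 in size, and did not pass with quantile-normalized raw intensities (-0.29, adjusted p = 0.058). Neither passed when cordycepin replicate 1 or 2 was left out (adjusted p = 0.34 and 0.29 for Tef, 0.52 and 0.41 for Rora). Npas2, the paralog of Clock, was not detected in cordycepin (23.3 and 20.0) and was at 37.8 and 35.5 in control, at least 1.62-fold lower when set at the lowest detected intensity of each cordycepin array, and did not pass (adjusted p = 0.27). Arntl2, Rorb and Hlf were not detected on any array.

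Timeless, which binds PER and CRY proteins, was at 454 and 415 in cordycepin, against 1290 and 990 in control, with a log2 ratio of -1.38 (adjusted p = 0.0069 from limma). It did not pass without cordycepin replicate 1 or 2 (adjusted p = 0.18 and 0.28). Nono and Sfpq, RNA-binding proteins found with the PER complex, had log2 ratios of -0.19 and 0.33 and did not pass (adjusted p = 0.97 and 0.87). Sfpq was higher with arrays centred on their median (0.66, adjusted p = 0.043) and with quantile normalization (0.90, adjusted p = 0.020). Of the ubiquitin ligase parts that direct PER or CRY turnover, Btrc (-0.47) and Fbxw11 (-0.41) did not pass (adjusted p = 0.65 and 0.75), and Fbxl21 was not detected.

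Among the clock-controlled outputs, Wee1, the kinase that holds cells before mitosis, was not detected in cordycepin (18.9 and 18.2) and was at 189 and 134 in control, at least 7.04-fold lower (adjusted p = 1.8e-12 from limma). Usp2, a deubiquitinase, was likewise not detected in cordycepin (12.2 and 11.8) and was at 72.1 and 39.9 in control, at least 2.37-fold lower (adjusted p = 2.5e-06). These folds are lower bounds, taken against the lowest detected intensity on each cordycepin array. The adjusted p-values belong to the ratios of the deposited values, undetected ones included, and the bounds themselves were not tested. Nampt, the rate-limiting enzyme of NAD salvage, was at 1120 and 1053 in cordycepin, against 1342 and 937 in control, and its groups overlapped (log2 ratio -0.05, adjusted p = 1.0). With quantile normalization it was higher (0.39, adjusted p = 0.015).

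**Figure D4:**
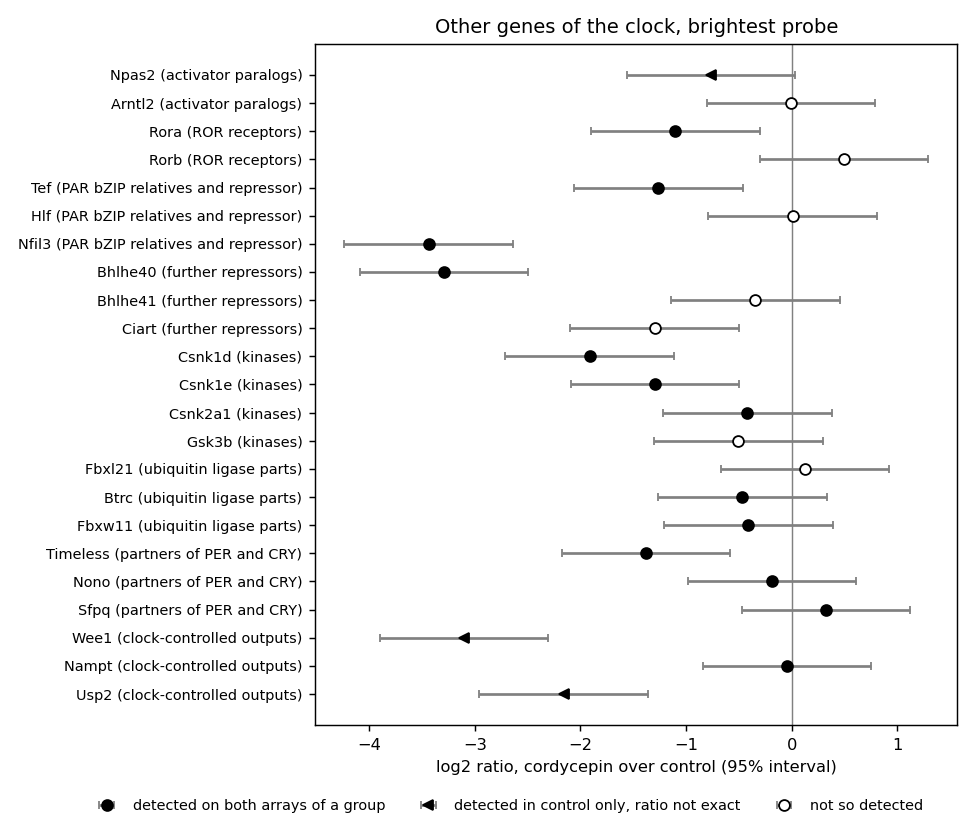
Log2 ratio of cordycepin over control with 95% intervals for the brightest probe of the further clock genes named in the text, with filled circles for genes detected on every array of a group. Triangles mark Npas2, Wee1 and Usp2, which were detected in control only, so that their ratios are not exact. Nfil3 and Bhlhe40 lie at -3.44 and -3.29, and Sfpq, at 0.33, is the highest of the filled circles.

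The summed normalized intensity of the Leydig cell markers was 17880 and 16431 in cordycepin and 26511 and 18954 in control. For the Sertoli cell markers it was 22484 and 19724 in cordycepin and 23503 and 17904 in control, for the macrophage markers 174 and 152 in cordycepin and 199 and 151 in control, and for the germ cell markers 36.7 and 35.5 in cordycepin and 50.4 and 43.5 in control. The sums thus overlapped between groups for Sertoli cells and macrophages and lay apart, lower in cordycepin, for Leydig and germ cells. By single genes, the groups lay apart for 2 of the 6 Leydig genes tested, Star and Nr5a1. They overlapped for Hsd3b1, Cyp17a1, Lhcgr and Scarb1, with log2 ratios of -0.18, -0.20, -0.10 and -0.09. Of the 4 germ cell genes, only Ddx4 lay apart. The lower sums therefore do not describe either list as a whole. Of the Sertoli markers, Sox9 was not detected in cordycepin (14.4 and 14.5), against 98.4 and 69.2 in control, at least 3.65-fold lower. Its adjusted p of 2.2e-08 from limma belongs to the ratio of the deposited values and not to that bound. Rhox5 was at 21940 and 19212 in cordycepin, against 22684 and 17297 in control, and made up most of the Sertoli cell sums. Their overlap is therefore that of Rhox5 and does not describe the list. Dhh lay apart, at 528 and 497 in cordycepin, against 717 and 536 in control, but did not pass (adjusted p = 0.90 from limma). Amh, not detected, overlapped. Nr5a1, the steroidogenic factor 1 gene of Leydig cells, was at 3094 and 2578 in cordycepin, against 7745 and 4964 in control (log2 ratio -1.13, adjusted p = 0.039). It did not pass without cordycepin replicate 1 or 2 (adjusted p = 0.31 and 0.58) or control replicate 1 (adjusted p = 0.056). The part of these markers in the clock values was not tested.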

How the data were processed

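RNA of MA-10 cells was hybridized to 4 Mouse OneArray arrays, 2 per group. The deposited tables hold raw intensity, already net of a background, and normalized intensity, which equals the raw value times 1 constant per array. Each array also has the authors' detection p-value per probe and a deposited spot flag score of unstated meaning, which was not used. The scanner software and normalization method are not given in the sources used here. The authors' own columns of a log2 ratio and a p-value for the comparison were not used.

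Log2 normalized intensities of the 24319 probes (of 26423) that were positive on all 4 arrays were fitted with limma 3.58.1 in R 4.3.3, using lmFit and default eBayes, and p-values were adjusted by Benjamini-Hochberg over them. The variance was pooled completely, hence 1 standard error for all probes. The probe with the highest mean over the arrays stood for a gene. Detection meant a detection p under 0.05, and for a group with no detection the bound on the fold used the higher of each array's value and its lowest detected intensity. Named were all members with every probe and, of the other clock genes, those that passed or were detected on every array of a group, with the undetected ones listed as such. For 2 of the other clock genes, included in the counts, single values are not reported here. The members and lists were chosen with earlier results of these data known. The array's Gm129 and Emr1 were matched to Ciart and Adgre1 through RefSeq synonyms. The fit was also run on simulated data with the same noise for every probe, which cannot show how it behaves on probes of unequal variance. Alternatives were 3 other scalings, 2 filters, a pseudocount of 50, an intensity trend, the methods' t-test, the middle probes of a gene, and leaving out each array.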

Additional observations from a re-analysis of the deposited data

How the results depend on the processing

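Cry2, Per2, Per1 and Arntl kept their calls under the 3 other scalings, and 13 alternatives were run in all. With arrays centred on their median, 1 other clock gene (Sfpq) and 4974 probes were higher. With quantile-normalized raw intensities 2 of the 10 clock genes, 2 other clock genes (Sfpq and Nampt) and 5219 probes were higher, and the log2 ratio of Cry1 turned to 0.24. With no filter 3 of the 10 clock genes (without Arntl), 5 other clock genes and 1798 probes were lower and 71 probes higher. With detected probes only, 6 of the 10 (Clock and Dbp added), 9 other clock genes and 3680 probes were lower and 153 probes higher. The main fit, over more probes, had 3152 lower and 290 higher. With a pseudocount of 50, 0 of the 10, 0 other clock genes and 0 probes were lower and 2 probes higher, against 4269 and 275 before adjustment (p under 0.05, limma). With the methods' t-test 0 of the 10, 0 other clock genes and 0 probes were lower and 0 higher after adjustment, against 2946 and 222 before adjustment. Leaving out 1 array at a time gave 3 to 9 of the 10 clock genes lower, 5 to 15 other clock genes lower and 0 to 1 higher, and 1548 to 6569 probes lower and 77 to 2183 higher, with the low ends for lower calls without cordycepin replicate 2 and the high ends without control replicate 2. The lone array is then assumed to vary like the other group. The brighter Per3 probe ran between -0.29 and 0.32 when 1 array was left out, at -0.06 without cordycepin replicate 1 and -0.29 without control replicate 2, and the mean of both probes gave -0.65. The cause of these changes was not tested. Over single genes, 198 values kept their direction and side of the threshold, 13 gained a call, 56 lost one and 4 turned. Probes near background, Ciart among them, carry little measured signal. No paired analysis was possible because the labels give the groups no shared replicate numbers.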
